A study of Mus musculus with 8 samples.

Results

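Sox10, Mitf, Pax3 and Tfap2a encode 4 transcription factors that set up and keep the melanocyte lineage. Their loci were examined in ChIP-seq peak lists, which give the places where DNA recovered with an antibody is found more often than in input, sequenced with no antibody step. A locus was the gene's span in mm9, a build of the mouse genome, with 100 kb on both sides, and every peak touching it was a member. The spans lay on chromosome 15 at 78985000 to 78995000 (Sox10), chromosome 6 at 97757000 to 97971000 (Mitf), chromosome 1 at 78097000 to 78197000 (Pax3) and chromosome 13 at 40810000 to 40829000 (Tfap2a). Their ends are rounded to 1 kb, and no transcript models in mm9 were used here, so exons, introns and untranslated regions were not assigned. In all 913 of 311378 peaks were members: 213 at Sox10, 385 at Mitf, 244 at Pax3 and 71 at Tfap2a. By library these were 22 SOX10, 284 H3K27ac and 139 H3K27me3 peaks of replicate 1 and 30, 291 and 147 of replicate 2.

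The cells were melan-Ink4a-Arf-1, an immortalised melanocyte line from embryonic mouse skin, so all values describe 1 line. Every library carries the same genotype, homozygous Cdkn2a tm1RDp, and the cells grew with 200 nM of the phorbol ester 12-O-tetradecanoylphorbol 13-acetate and 200 pM cholera toxin. There was no untreated, wild-type or other control culture. Each of the 3 antibodies was used in 2 independent experiments, with 1 input for SOX10 and 1 shared by the histone mark libraries. After duplicates were removed, tags ranged from 6440395 to 8985699 for SOX10, from 44416913 to 45583056 for H3K27ac and from 67060647 to 71987481 for H3K27me3. With 2 libraries per antibody no test between conditions could be made, and counts and intervals cover counting error only.

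SOX10, an HMG-box factor of the neural crest, and PAX3, a paired-box factor, are known to activate Mitf together in melanoblasts. MITF is a basic helix-loop-helix leucine zipper protein that turns on pigment and survival genes, and TFAP2A (AP-2 alpha) shares many of its target genes. Acetylated lysine 27 of histone H3 (H3K27ac) marks active promoters and enhancers, and its trimethylated form (H3K27me3) marks chromatin silenced by Polycomb.

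Mitf has several starts, used in different cell types, and the start of the melanocyte form is known to be bound by SOX10 and PAX3. The 250 bases before 2 of the 3 Mitf starts in RefSeq's promoter table (GRCm38.p6, plus strand) are shown because the marks differed between the first and the last part of the gene. The first start in gene order lies at chr6:97806808-97807057 and the third, which holds the melanocyte promoter's cyclic AMP response element, at chr6:97991533-97991782. These positions are in another build than the peaks and are not comparable with them, so no peak was assigned to either sequence. Capitals mark the cyclic AMP response element.
Mitf start 1: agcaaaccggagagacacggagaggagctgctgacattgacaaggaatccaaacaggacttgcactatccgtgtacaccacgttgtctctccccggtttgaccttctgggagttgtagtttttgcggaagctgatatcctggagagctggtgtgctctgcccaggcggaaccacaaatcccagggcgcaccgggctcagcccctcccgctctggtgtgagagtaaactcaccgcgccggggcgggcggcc
Mitf start 3: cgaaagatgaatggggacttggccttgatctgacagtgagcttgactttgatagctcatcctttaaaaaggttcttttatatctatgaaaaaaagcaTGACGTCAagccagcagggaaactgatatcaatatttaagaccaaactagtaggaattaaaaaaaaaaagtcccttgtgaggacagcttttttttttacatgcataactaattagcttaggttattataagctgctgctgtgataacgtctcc
The sequence before start 1 had 59.6% G and C and the one before start 3 had 36%. The element, TGACGTCA, began 153 bases before start 3 (position -153) and was present in 1.55% of all 32851 promoters of the table, over the same 250 bases. The SOX cores ACAAAG and ACAATG, the E-boxes CATGTG and CACGTG and the AP-2 core GCCNNNGGC, searched on both strands, had no match in either sequence. They occur in 16.5%, 10.7%, 12.3%, 6.02% and 13.7% of the promoters. Only these exact letters were searched, so other forms of the SOX motif were not looked for and can be present in the sequences shown.

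SOX10 sites were found at all 4 genes. A site was a merged region with at least 1 peak of each replicate, and the loci held 16 of the 4159 such sites: 4 at Sox10, 5 at Mitf, 4 at Pax3 and 3 at Tfap2a. They held 22 of the 6409 SOX10 peaks of replicate 1, of which 17 met a peak of replicate 2, where 65.4% of that list did. Of the 30 peaks of replicate 2, 16 were found in replicate 1, where 43.6% of its list were. Sites were dense here. Of 12201 non-overlapping stretches as long as the Sox10 locus, laid over the numbered chromosomes and X, 0.91% held at least 4 SOX10 sites. The share with at least 5 sites at the length of the Mitf locus was 1.46%, with at least 4 at that of Pax3 1.89%, and with at least 3 at that of Tfap2a 2.72%. The map of peaks around the genes shows where both replicates placed them.

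**Figure D1:**
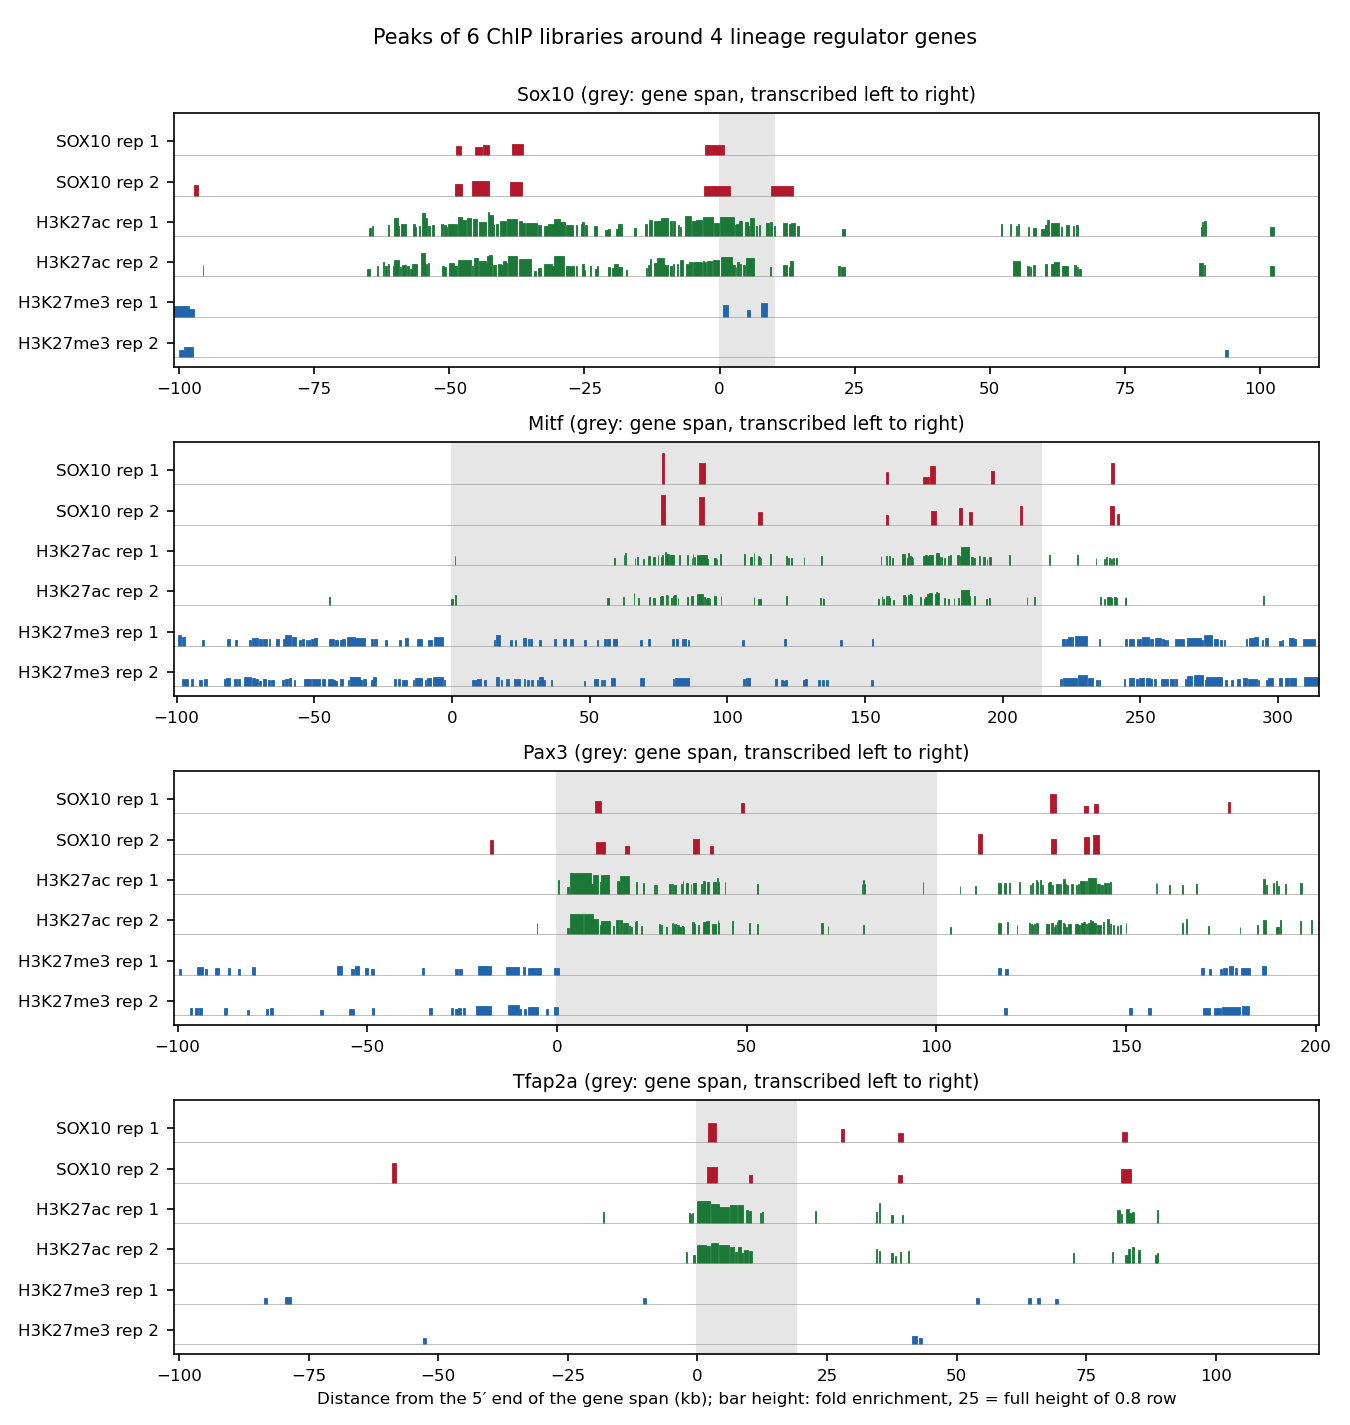
Peaks of the 6 libraries at the 4 loci, by distance from the 5′ end of the gene span (kb), with bar height giving the authors' fold enrichment over input and the gene span in grey. SOX10 sites found by both replicates lie upstream of Sox10 and both inside and downstream of Mitf, Pax3 and Tfap2a, and H3K27me3 peaks crowd both flanks of Mitf and the upstream flank of Pax3.

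At Sox10 all 4 sites had their summit upstream of the gene's 5′ end. The site nearest the start, on chromosome 15 at 78992983 to 78997943, had its summit 1.33 kb upstream and covered the 5′ end. The authors' fold enrichment there, tags at the summit over the expected background, was 7.92 in replicate 1 and 7.57 in replicate 2 (7.75 ± 0.247, SD, n = 2), with 146 and 246 tags. Both replicates gave nearly the same fold, and at 4961 bp the site was wider than all but 0.12% of SOX10 sites. The other 3 sites formed a group between 37.2 and 48.4 kb upstream. Upstream enhancers of Sox10 are known in the mouse, and these sites were not matched to them here. The site 37.2 kb upstream (79031452 to 79033746) had folds of 8.90 and 10.63, the one 44.7 kb upstream (79037622 to 79040724) 7.65 and 11.02, and the one 48.4 kb upstream (79042659 to 79044010) 7.17 and 9.07. In this group replicate 2 was higher at each site. In replicate 1 the middle site was called as 2 peaks. One, with 48 tags and a fold of 6.47, had its summit 44.7 kb upstream like that of replicate 2, and the other, with 27 tags and the fold of 7.65, had it 43.2 kb upstream. Of 2 peaks called in replicate 2 only, the higher lay 96.8 kb upstream (79091464 to 79092166) with a fold of 7.98 and 22 tags.

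The folds at Sox10 were low for SOX10 sites while the tag numbers were high. None of its 4 sites exceeded the median fold of all sites, 11.2, and 63.8% or more of all sites had a higher fold than each of them. Their tags, 53 to 146 in replicate 1 and 92 to 246 in replicate 2, were above the medians of 24 and 36 over all sites. The SOX10 input moved with this. Recovered from the authors' tags and p, the background at the 4 sites was 2.76 to 6.49 times its genome-wide value in replicate 1 and 4.28 to 6.49 times in replicate 2, where the medians over all sites were 1.58 in both. At least 3 times that level in both replicates was reached by 13.9% of all sites. The part of the input in these folds and widths was not tested. In the other input, used for H3K27ac, the same locus was near the general level, its peaks having medians of 1.23 and 1.14, against 1.24 and 1.17 over all H3K27ac peaks.

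Mitf held the strongest SOX10 sites of the 4 loci, and 4 of its 5 lay inside the gene span. The highest, on chromosome 6 at 97832964 to 97834325, lay 76.7 kb into the gene and had folds of 24.04 and 22.95 (23.5 ± 0.771, SD, n = 2), with 45 and 64 tags. Only 5.12% of all SOX10 sites had a higher fold. The second, 91.1 kb into the gene (97846631 to 97848894), had folds of 16.64 and 21.25 with 68 and 90 tags. These 2 sites were the highest of all 16 and both lay in the first 100 kb of the gene. Further in, the site at 157.9 kb (97914461 to 97915515) was the weakest of the gene, with folds of 9.25 and 7.60 and 15 and 30 tags. The site at 174.9 kb (97930446 to 97932604) had folds of 14.11 and 10.46 with 98 and 103 tags. The fifth site lay beyond the gene's 3′ end, 239.9 kb from the 5′ end (97995929 to 97997538), with folds of 16.64 and 14.24. Replicate 1 gave the higher fold at 4 of the 5 sites. Except for the weakest, each site's mean fold exceeded the median of all sites.

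7 further SOX10 peaks at Mitf were called in 1 replicate only, 2 in replicate 1 and 5 in replicate 2. The highest was a peak of replicate 2 at 206.7 kb (97963246 to 97964151), with a fold of 14.15 and 27 tags. Another of replicate 2, at 184.7 kb (97940972 to 97942227, singled out after its position was seen), had a fold of 13.21 and 44 tags. It overlapped the widest H3K27ac region of the locus, described below, and replicate 1 had no peak there. Replicate 1 had fewer kept tags, and whether it missed the place for that reason was not tested.

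Pax3 had 1 site inside the gene and 3 beyond its 3′ end. The site inside (chromosome 1 at 78184434 to 78186885) lay 10.6 kb from the 5′ end with folds of 9.64 and 9.33 (9.48 ± 0.219, SD, n = 2) and 60 and 97 tags. The strongest, 131.0 kb from the 5′ end and past the end of the span (78065452 to 78067027), had folds of 14.72 and 11.76. The replicates were close at these 2 places. They were far apart at the other 2, where replicate 2 was higher. At 139.9 kb (78056660 to 78058060) the folds were 5.83 and 13.29, with 20 and 55 tags. At 142.3 kb (78054077 to 78055749) they were 7.34 and 14.52, with 29 and 68 tags. A further 7 peaks were called in 1 replicate only, with folds up to 15.04 for a peak of replicate 2 at 111.7 kb (78085066 to 78085874).

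Tfap2a had its strongest SOX10 site near the start of the gene. This site (chromosome 13 at 40825131 to 40827223) lay 2.81 kb from the 5′ end with folds of 15.29 and 12.43 (13.9 ± 2.02, SD, n = 2) and 77 and 121 tags. The other 2 lay downstream of the gene. The site at 39.2 kb from the 5′ end (40789382 to 40790375) was the weakest of the 16, with folds of 7.68 and 5.84 and 20 and 24 tags. The site at 82.4 kb (40745392 to 40747203) had folds of 8.32 and 10.55. Of 3 peaks found by 1 replicate only, the highest was in replicate 2 and lay 58.7 kb upstream (40887169 to 40887877), with a fold of 15.04 and 19 tags.

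**Figure D2:**
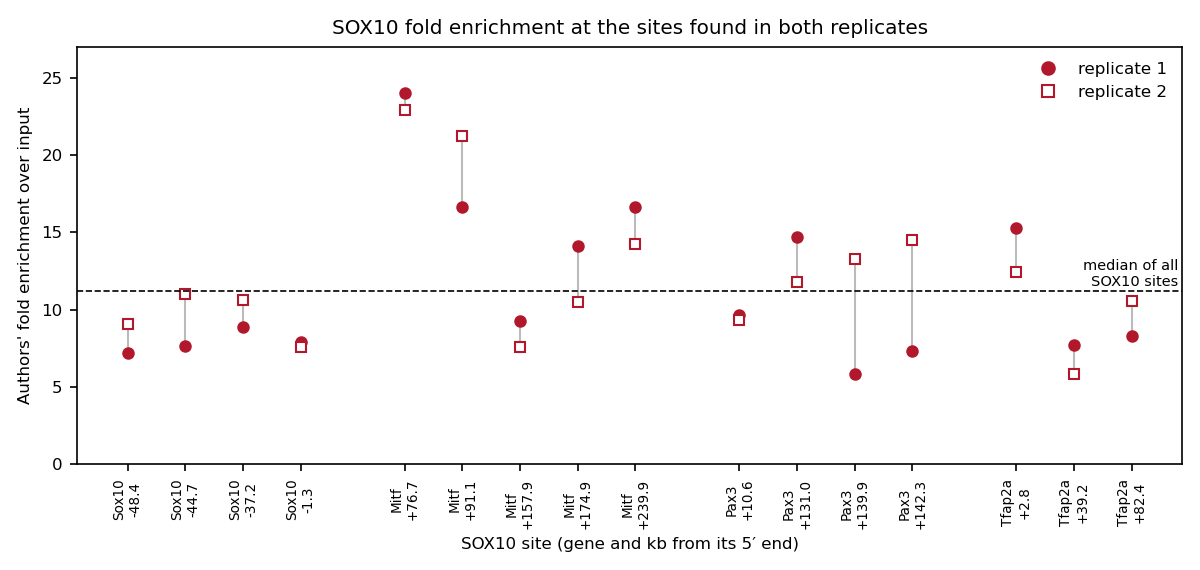
The authors' fold enrichment of SOX10 over input (vertical axis) at the 16 sites found by both replicates, with replicate 1 as filled circles, replicate 2 as open squares and the median of all 4159 sites as a dashed line. The 4 Sox10 sites lie below the line, 2 Mitf sites stand highest, and the 2 most distal Pax3 sites differ most between replicates.

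Across the 4 loci, 6 of the 16 sites had a mean fold above the median of all SOX10 sites and 14 were wider than the median of 1150 bp. Mean folds ranged from 6.76 to 23.5 with a median of 9.66. The background recovered from the input was 2.46 times its general level, as a median in each replicate. Width, input level and fold were thus not those of a typical site, and their part in the overlaps below was not tested.

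SOX10 sites at the 4 genes lay nearly always at acetylated chromatin. Of the 16 sites, 15 overlapped an H3K27ac region called in both replicates, 93.8% (95% Wilson interval 71.7 to 98.9%), where 53.2% of all SOX10 sites did. The exception was the weakest site, 39.2 kb from the Tfap2a start, whose summit lay 1525 bp from the nearest H3K27ac region of both replicates. Each replicate had an H3K27ac peak overlapping this site, but these peaks did not overlap each other, so no region was formed. Their folds were 6.57 in replicate 1 (22 tags) and 8.63 in replicate 2 (21 tags). Sites of 1 locus share their surroundings and are not independent, so the share of 93.8% was not tested against the background. With all peaks of 1 SOX10 and 1 H3K27ac library instead, it was 81.8% (18 of 22) in replicate 1, where 48.8% of all SOX10 peaks did so, and 83.3% (25 of 30) in replicate 2, where 53.7% did. Of the 19 peaks called in 1 replicate only, 9 overlapped an H3K27ac region, where 36.8% of all 7642 such peaks did, and 2 an H3K27me3 region, where 2.43% did. None of the 16 sites overlapped an H3K27me3 region, where 1.32% of all sites did.

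The SOX10 summit itself was in a gap between H3K27ac regions at 9 of the 16 sites. There no H3K27ac region covered the summit, but one lay less than 1 kb away on each side, where 20.9% of all SOX10 sites had this form. At 5 sites the summit was inside a region, where 16.1% of all were. The gapped form was seen at 4 of 5 Mitf sites, 3 of 4 Pax3 sites, 2 of 4 Sox10 sites and none of the 3 Tfap2a sites. At the gapped Pax3 site at 131.0 kb, an H3K27ac peak of replicate 2 alone covered the summit, with a fold of 5.88 and 19 tags. At the Mitf site at 91.1 kb, H3K27ac regions ended 68 bp before the summit and began 73 bp after it. At the Pax3 site at 142.3 kb these distances were 46 and 142 bp, and at the Sox10 site 44.7 kb upstream 37 and 263 bp. The widest gap of this form was at the Mitf site at 174.9 kb, with 409 and 796 bp. Summits inside a region were those 1.33 and 48.4 kb upstream of Sox10 and those at 157.9 kb in Mitf, 10.6 kb in Pax3 and 2.81 kb in Tfap2a. H3K27ac peaks were called with a tag distance of 50 and 51 bp, about the tag length, which can split them. Joining regions less than 1 kb apart put 13 of the 16 summits inside. The form was judged at the summit of the replicate with the higher fold, and the replicates' summits differed by a median of 50 bp and at most 1539 bp. With the other replicate's highest peak, the summits at 139.9 kb in Pax3 and 44.7 kb upstream of Sox10 fall inside a region. The one at 157.9 kb in Mitf then falls in a gap.

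**Figure D3:**
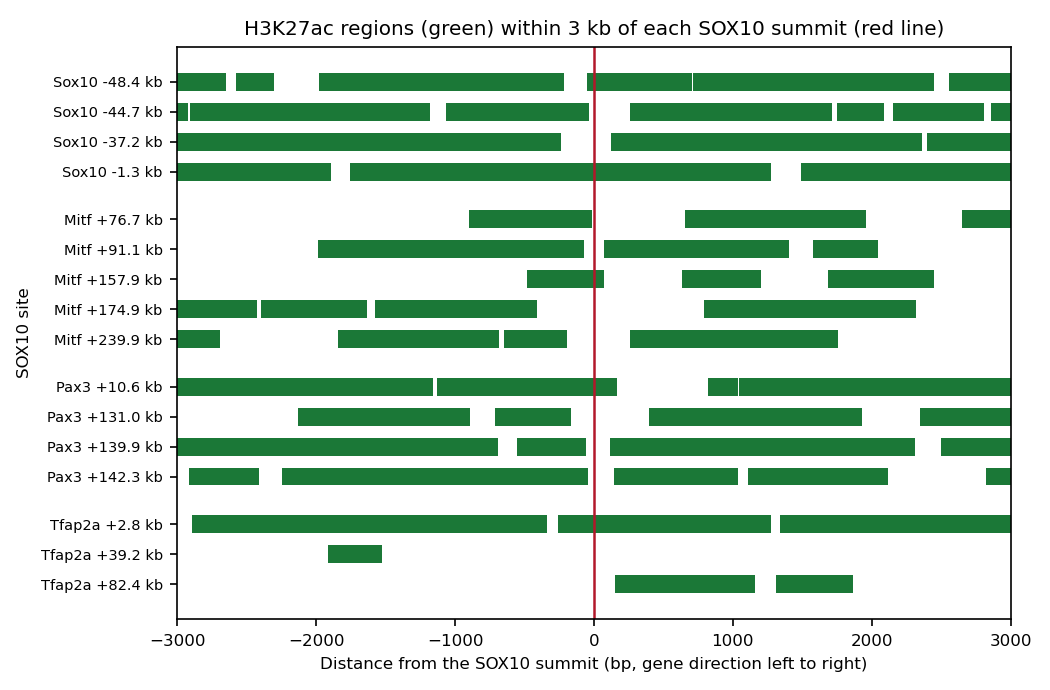
H3K27ac regions found in both replicates (green) within 3 kb of each of the 16 SOX10 summits (red line at 0 bp), with the gene's direction running left to right and sites named by gene and distance from its 5′ end. The summit falls in a gap at 9 sites and inside a region at 5. At the 2 distal Tfap2a sites a region lies within 1 kb on 1 side or, at 39.2 kb, on neither. Peaks of 1 replicate only are not drawn.

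Sox10 was the most heavily acetylated of the 4 loci. H3K27ac peaks covered 26.7% of its 210 kb in each replicate. Regions found in both, which merge the overlapping peaks of the 2 replicates, covered 28.4%, and bp called in both covered 20.7%. Such regions covered 1.12% of the rest of chromosome 15 and 0.995% of all numbered chromosomes with X. Of the 12201 stretches of that length, 0.0656% (8 stretches) had at least the 28.4%. The upstream flank carried more, 39.8 ± 0.692%, than the downstream flank, 10.2 ± 0.0205% (mean ± SD, n = 2), and the gene span itself had 61.2 ± 7.88%. In the 10 kb around the 5′ end, regions found in both replicates covered 95.5%, and the peaks of replicates 1 and 2 alone 89.2 and 85.7%.

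2 long acetylated stretches, each made by joining H3K27ac regions less than 1 kb apart, held all 4 Sox10 sites. One ran from 51.5 to 24.9 kb upstream, 26660 bp long with 18 regions and 3 SOX10 sites, and 0.0454% of all 19839 joined stretches (9 stretches, itself included) were at least as long. The other ran from 13.7 kb upstream to 6.39 kb into the gene, 20119 bp long with 1 SOX10 site, and 0.141% were at least as long. The H3K27ac region with the highest fold of the locus (79049552 to 79050162) lay outside both, 54.7 kb upstream, with 17.42 and 17.71 (17.6 ± 0.205, SD, n = 2). Only 0.166% of all H3K27ac regions had a higher fold. The widest region of the locus (79023670 to 79027582, 3913 bp) lay inside the longer stretch, 30.3 kb upstream, with folds of 12.80 and 16.01. RefSeq's gene table (GRCm38.p6, used for names and order only) lists 8 protein-coding neighbours within 100 kb of Sox10, with Pick1, Slc16a8 and Baiap2l2 on the upstream side and Ankrd54, Eif3l, Micall1, 1700088E04Rik and Polr2f on the other. Acetylation of Sox10 and of these neighbours cannot be told apart here.

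Tfap2a was acetylated over the first part of the gene and little elsewhere. A joined stretch of 11483 bp ran from 1.03 kb upstream to 10.5 kb into the gene and held the gene's 5′ end and its strongest SOX10 site. Of all joined stretches 0.822% were at least as long. The region at the 5′ end (40826535 to 40829091) was the widest and highest of the locus, with folds of 17.48 and 14.57 (16.0 ± 2.06, SD, n = 2), and 0.371% of H3K27ac regions had a higher fold. H3K27ac covered 50.4 ± 3.34% of the gene span, but 0.705 ± 0.201% of the upstream flank and 3.71 ± 0.745% of the downstream flank (SD, n = 2). Regions found in both replicates covered 6.09% of the whole locus, and 4.57% of stretches of that length had at least as much.

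Pax3 was acetylated in the first part of the gene and again past its 3′ end, with no region of both replicates at its 5′ end. Between 60 and 80 kb from the 5′ end no region was found in both, and between 80 and 100 kb they covered 1.4%. Replicate 1 alone had a peak next to the 5′ end, at 78196511 to 78196753, with a fold of 10.49 and 23 tags (singled out after its position was seen). Peaks covered 22.0 ± 0.617% of the gene span and 17.7 ± 0.161% of the downstream flank, but 0.0710 ± 0.100% of the upstream flank (SD, n = 2), where no region was found in both replicates. The widest H3K27ac region of the 4 loci (78187577 to 78193476, 5900 bp) lay in the gene with its summit 8.04 kb from the 5′ end and folds of 16.52 and 15.43. It belonged to a joined stretch of 11118 bp that ran from 2.77 to 13.9 kb into the gene and held the SOX10 site at 10.6 kb. A second stretch of 9573 bp, from 136.5 to 146.1 kb, held both sites that differed between replicates, and another of 5463 bp held the site at 131.0 kb. Over the whole locus the regions covered 12.1%, and 0.984% of stretches of that length had as much.

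At Mitf acetylation was confined, among regions found in both replicates, to the gene and 5 regions past its 3′ end. Peaks covered 15.2 ± 1.31% of the gene span, 0.236 ± 0.334% of the upstream flank and 3.72 ± 0.330% of the downstream flank (SD, n = 2). It was densest between 160 and 180 kb from the 5′ end, where regions covered 42% of the sequence, and then between 80 and 100 kb with 34%. The first 20 kb of the gene had 2.56%. The region with the highest fold was also the widest (97941596 to 97944770, 3175 bp), with its summit 185.5 kb into the gene, folds of 13.75 and 11.98 (12.9 ± 1.25, SD, n = 2) and 471 and 494 tags. It overlapped no SOX10 site of both replicates, only the peak of replicate 2 named above. The 42 regions of the locus had a median fold of 6.80, lower than the 8.62 of all H3K27ac regions. The input moved with this: its recovered level under the locus' peaks was 1.58 and 1.54 as a median, in units of its general level. That was above the 1.24 and 1.17 of all peaks but near the 1.59 and 1.53 of all H3K27ac peaks on chromosome 6. The input level was thus not particular to the locus. The part of the input in the folds was not tested. The longest acetylated stretch had 4921 bp, less than the longest of each other locus, a length that 5.65% of all joined stretches reached. Regions found in both replicates covered 8.15% of the locus, and 2.07% of stretches of that length had at least as much.

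H3K27me3 regions covered more of Mitf and Pax3 than of Sox10 and Tfap2a. These coverages depended on the authors' FDR: with peaks of an FDR of at most 1% alone, that of Mitf went from 31.6 to 2.27% and that of Pax3 from 10.2 to 0.726%. The H3K27me3 peaks removed by this filter had a median fold of 5.68 over the 4 loci, above the 4.59 of those kept. The filter thus did not act as a stricter cut on fold. With a score of at least 100 instead, the coverages were 21.6 and 6.64%. At Mitf H3K27me3 covered both flanks, 46.1 ± 6.05% upstream and 51.9 ± 4.93% downstream (SD, n = 2), and less of the gene span, 12.8 ± 4.47%. Regions found in both replicates numbered 59 and covered 31.6% of the locus, where the rest of chromosome 6 had 9.86% and all numbered chromosomes with X 2.25%. On chromosome 6 alone, 9.92% of stretches of that length had at least this coverage, and over all chromosomes 0.663%. No such region was found between 160 and 220 kb from the 5′ end, in the last part of the gene and just past it, where the SOX10 site at 174.9 kb and the highest H3K27ac region lay. The other Mitf sites lay closer to H3K27me3, between 3.30 and 4.92 kb from the nearest region, and the site at 174.9 kb at 21.9 kb. The widest H3K27me3 region (97977925 to 97987657, 9733 bp, folds of 7.21 and 8.52) lay just past the gene's 3′ end. The highest inside the gene (97772897 to 97774611) lay 17.1 kb from the 5′ end with folds of 7.87 and 6.56. H3K27me3 peaks were called with no local background, on a chromosome where the input under H3K27ac peaks was at 1.59 and 1.53 (medians, relative to its general level), against 1.23 and 1.16 on the other numbered chromosomes. The part of this in the Mitf coverage was not tested.

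At Pax3 H3K27me3 lay before and across the gene's 5′ end and H3K27ac further into the gene. The first H3K27ac region of both replicates began 2.77 kb in, and no regions of both replicates overlapped between the marks. Some peaks of 1 replicate only did overlap the other mark (singled out after their positions were seen). H3K27ac peaks at 78196511 to 78196753 (replicate 1) and 78202198 to 78202339 (replicate 2, fold 8.99) lay inside H3K27me3 regions. Past the 3′ end, H3K27me3 peaks of replicate 1 at 78010072 to 78011185 and 78079887 to 78080769 overlapped H3K27ac regions. H3K27me3 covered 22.8 ± 0.727% of the upstream flank, 0.371 ± 0.206% of the gene span and 11.1 ± 2.08% of the downstream flank (SD, n = 2). A region found in both replicates lay across the 5′ end itself (78196484 to 78197644, folds of 5.03 and 6.12). H3K27me3 was densest in the 20 kb before the 5′ end, with 51.1% covered and no H3K27ac region of both replicates. The first 20 kb of the gene had 66.6% under H3K27ac and 2.58% under H3K27me3. The region with the highest fold (78214336 to 78218388, 6.78 and 7.21) lay 18.6 kb upstream. A second group, holding the widest region (78016970 to 78023916, 6947 bp), began past the downstream acetylated stretches, with 47.9% covered between 160 and 180 kb. Over the whole locus the regions covered 10.2%, where the rest of chromosome 1 had 1.58%, and 5.95% of stretches of that length had at least as much.

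H3K27me3 at Sox10 and Tfap2a was not unusual in either direction among stretches of their length. Regions found in both replicates covered 1.28% of the Sox10 locus, which 27.3% of such stretches reached, where the rest of chromosome 15 had 1.75%. At Tfap2a they covered none, as in 61.4% of such stretches. Tfap2a had 7 peaks in replicate 1 and 3 in replicate 2, none shared, so no region was found in both, where 46.8% and 52.6% of all H3K27me3 peaks of replicates 1 and 2 met one of the other. Sox10 had 1 shared region, at the upstream edge of the locus (79092312 to 79096898). Inside the Sox10 span replicate 1 had 3 peaks with folds up to 10.49, covering 25.5% of it, and replicate 2 had none. 2 of these 3 peaks overlapped an H3K27ac region. The value at the Sox10 gene therefore rests on replicate 1 alone.

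**Figure D4:**
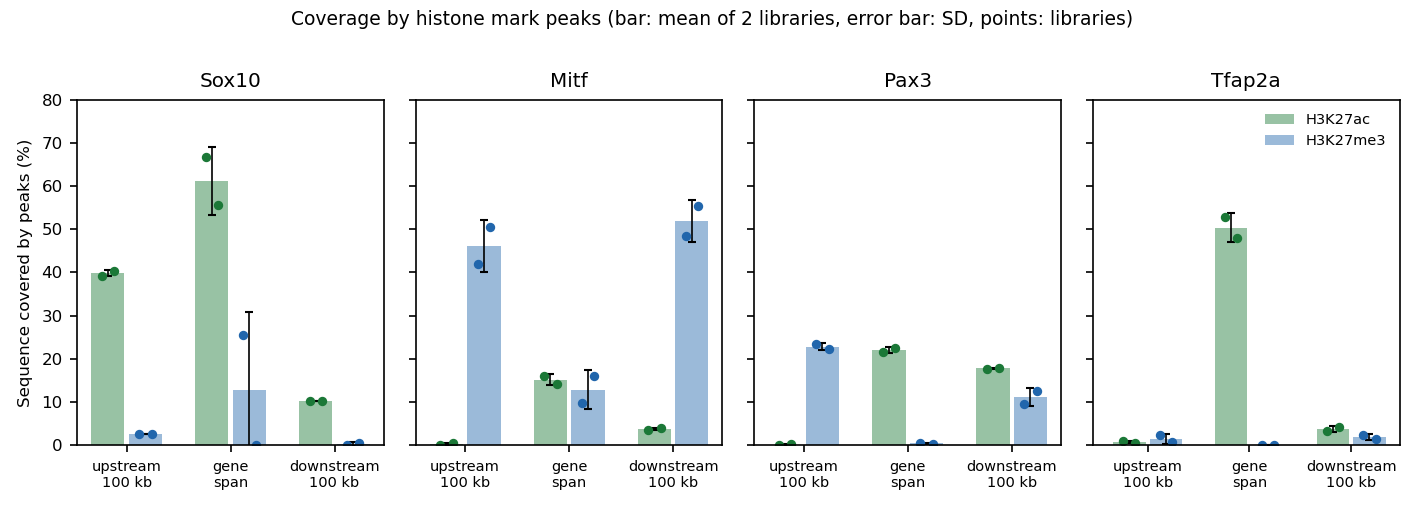
Percent of the upstream 100 kb, the gene span and the downstream 100 kb covered by H3K27ac (green) and H3K27me3 (blue) peaks; bars are means of 2 libraries, points the libraries, error bars the SD (clipped at 0). H3K27me3 is highest on both flanks of Mitf and upstream of Pax3, H3K27ac in the spans of Sox10 and Tfap2a, and H3K27me3 in the Sox10 span comes from 1 library.

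The 2 marks shared a place about as rarely as over all H3K27ac regions. Of 151 H3K27ac regions at the 4 loci, 3 overlapped an H3K27me3 region (1.99%), all of them at Mitf, which has 42 (7.14%). Of all H3K27ac regions 1.94% did, and of those on chromosome 6 10.3%. At Sox10 none of 57 did, at Pax3 none of 38 and at Tfap2a none of 14. Peaks called in 1 replicate only were not part of these counts. Sox10 had only 1 H3K27me3 region of both replicates, at the edge of the locus, and Tfap2a had none. Little or no overlap was therefore possible at these loci.

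The label of the cells as melanocytes could not be checked here. These 4 genes were chosen as lineage regulators, and no other marker was placed in mm9. Sox10, Mitf, Pax3 and Tfap2a each carried H3K27ac regions inside the gene span in both replicates, and the share of other genes that do was not counted. Expression was not measured.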

How the data were processed

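The authors called peaks in each library on its own with MACS 1.4.2 against the input at a p cutoff of 1e-05, keeping at most 1 tag per position, per the file headers. The build is mm9, per the submitters' processing notes. The sources used here name no aligner. For SOX10 and H3K27ac the background was local, from 1000 and 10000 bp of the input, and for H3K27me3 it was not, per the file headers. The deposited values are the count of tags in each peak, -log10 of p multiplied by 10, the fold enrichment (a ratio to the background) and an FDR in percent, per the file headers. Each describes its own peak and served only for that, for ranking and for filtering.

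The 2 replicates' peaks were merged at an overlap of 1 bp or more, and regions with at least 1 peak of each were kept as found in both. Folds are the highest of each replicate, and the summit is that of the higher one. Overlaps needed 1 bp, and joined stretches had gaps below 1 kb. The input level is the Poisson mean at which a peak's tags give its p, over the genome-wide level. In the H3K27me3 lists it was within 1% of that level at 96.4% and 98.0% of the members, where no local background was used. Background shares count non-overlapping stretches of each locus' length. Overlap, merging and the recovered mean were tested on simulated data. The strands of Sox10 and Pax3 are general knowledge.

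All SOX10 sites found in both replicates are named, with the highest SOX10 peak of 1 replicate per locus, and, of histone mark regions, the highest, the widest and those over the 5′ end (for Mitf also the highest within the gene). Members and lists were chosen with earlier results of these data known. Other lineage genes were not placed in mm9 and are not analysed here. Promoter sequences and gene order are from RefSeq tables of GRCm38.p6, which hold all 4 genes by name and promoters of Mitf and Tfap2a. Python 3.11.15, pandas 2.3.3 and SciPy 1.17.1 were used.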

Additional observations from a re-analysis of the deposited data

How the results depend on the processing

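No paired analysis was possible because the values come from peak lists with no test between libraries. The share of SOX10 sites at H3K27ac was 88.9% (8 of 9) under a stricter score of 100 and under an FDR of at most 1%. It was 93.3% (14 of 15) with flanks of 50 kb and 93.8% with an overlap of 50% of the shorter region. With replicate 1 or 2 alone it was 81.8 or 83.3%. These settings reuse largely the same sites and are not independent checks. The share fell to 31.2% with the summit required inside a region. With a score of at least 100, SOX10 sites numbered 2 at Sox10, 2 at Pax3 and 1 at Tfap2a; with the FDR filter 2 at Mitf and 1 at Tfap2a. With 1 replicate alone they numbered 5 to 6 at Sox10, 7 to 10 at Mitf, 6 to 9 at Pax3 and 4 to 5 at Tfap2a. Coverage moved by more than the SD between replicates in many settings. For H3K27ac at Sox10, Mitf, Pax3 and Tfap2a it was 22.9, 4.46, 10.1 and 5.09% with a score of at least 100, 21.6, 6.92, 7.83 and 2.63% with the FDR filter, 43.2, 10.7, 17.2 and 9.35% with flanks of 50 kb, and 20.7, 5.28, 8.62 and 4.85% counting only bp called in both replicates. With 1 replicate alone it was 26.7% at Sox10 with either, and 8.43 to 9.17%, 13.1 to 13.5% and 6.36 to 6.42% at the others. Under the score filter Tfap2a exceeded Mitf, an order opposite to the full lists. H3K27me3 at Mitf and Pax3 was 21.6 and 6.64% with a score of at least 100, 2.27 and 0.726% with the FDR filter, 24.4 and 7.6% with flanks of 50 kb, and 18.9 and 6.34% by shared bp. At Sox10 it was 0% with the FDR filter and 0% with flanks of 50 kb. With 1 replicate it was 1.48 to 2.45% at Sox10, 26.8 to 33.8% at Mitf, 11.1 to 11.7% at Pax3 and 0.912 to 2.15% at Tfap2a. The FDR filter removed 155 of 286 H3K27me3 member peaks, with a median fold of 5.68, above the 4.59 of those it kept. It removed 26 of 575 H3K27ac peaks (median fold 14.27, against 7.93 kept) and 23 of 52 SOX10 peaks (9.23 against 10.46). The cause was not tested. The SOX10 libraries had the fewest kept tags, 6440395 and 8985699, and 19 of the 52 SOX10 member peaks were seen in 1 replicate only; the part of depth in this was not tested.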

Other observations

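SOX10 peaks called in 1 library only numbered 19, of which 5 were in replicate 1 and 14 in replicate 2. The 2 that overlapped an H3K27me3 region were both at Pax3: a peak of replicate 1 beyond the 3′ end, 177.0 kb from the 5′ end, with a fold of 9.23 and 10 tags, and a peak of replicate 2 lying 17.1 kb upstream, with a fold of 10.5 and 18 tags. At 3 of the 19 the input was at its genome-wide floor and no histone region lay there: 111.7 kb from the Pax3 start and 58.7 kb upstream of Tfap2a in replicate 2, both with a fold of 15.04, and 28.1 kb from the Tfap2a start in replicate 1 with 10.54. Apart from those with a fold of 15.04, which are the highest of their loci, these places were singled out after their values were seen.

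Across the 3′ end of the Sox10 span lay a wide SOX10 peak of replicate 2 (78981445 to 78985554, 4110 bp, fold 7.12). It held 152 tags and overlapped an H3K27ac region, with an input level of 5.03 times the genome-wide one. Replicate 1 had no peak there. Further from Sox10 on the same side, an acetylated stretch of 4458 bp lay 60.2 to 64.6 kb from the 5′ end with no SOX10 site.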
